A study of Homo sapiens with 60 samples.

Results

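The SAM68 transcriptome described here is that of Flp-In HEK293 cells stably expressing SAM68 fused to FLAG-tagged APEX2, measured in whole-cell RNA before any streptavidin pulldown. It was read as a comparison of 2 libraries, the SAM68 inputs, with the 10 inputs of 5 other lines, so that 12 of the 60 libraries of the series were used. All 6 lines are Flp-In HEK293, a human embryonic kidney line with an integration site for transgenes, and each carries a FLAG-APEX2 fusion: SAM68, RNPS1 (a nuclear speckle protein), SP100 (PML bodies), SMN2 (gems), WRAP53 (Cajal bodies) or GFP. APEX2 is an engineered peroxidase that biotinylates molecules near it, and cells of every line, the GFP control included, received 500 µM biotin-phenol for 30 minutes and then 1 mM hydrogen peroxide for 1 minute before RNA was extracted and ribosomal RNA was depleted. No line without APEX2 or without peroxide enters the comparison. The labels do not say whether a line is a clone or a pool of cells, name the promoter of the construct, or tie replicates to cultures, so the 2 libraries of a line may share everything but the library preparation, and p-values measure only the spread between libraries.

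SAM68, the product of KHDRBS1, is a nuclear RNA-binding protein of the STAR family, whose KH domain binds A/U-rich RNA. It takes part in alternative splicing, for example of CD44, BCL2L1 and the neurexins, and is modified by Src-family kinases such as FYN and by the arginine methyltransferase PRMT1. Gene counts bear on the abundance of RNAs and not on which exons they contain.

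Total counts were 36154916 and 23385552 in the SAM68 inputs and 14038645 to 31137028 in the other 10. Sums over HEK293 marker genes (keratins 8 and 18, vimentin, PAX2, N-cadherin and neurofilaments, 8 genes) were 1392 to 1519 CPM (counts scaled to a common library size) in the SAM68 inputs and 1229 to 2087 in the others, and none of the 8 was at 0. Neuronal, fibroblast, blood and hepatocyte markers summed to at most 83.7, 39.2, 2.21 and 0.415 CPM in the SAM68 inputs, against up to 108, 81.4, 2.76 and 0.391 CPM in the others, and MS4A1 and HBB of the blood list were at 0 in all 12. Of 890 entries on the gene lists used below, 45 were listed at 0 in all 12 inputs, among them genes that every cell uses such as HNRNPA1, RPL17, RPS10 and SDHA. For these the table holds no measurement of expression.

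KHDRBS1 (GRCh38.p14, chr1:32013868-32060850, the whole gene span with its exons and introns) was read first as a check of the labels. It stood at 1080 and 963 CPM in the SAM68 inputs. It was 281 and 283 CPM in RNPS1, 285 and 251 in SP100, 291 and 291 in SMN2, 275 and 260 in WRAP53, and 301 and 301 in GFP. Both SAM68 libraries therefore lay above the other 10, which occupied a narrow band. The difference between the SAM68 line and the mean of the 5 lines was 1.86 ± 0.05 on the log2 scale (SE), a 3.63-fold higher level (edgeR quasi-likelihood test, Benjamini-Hochberg adjusted p = 3.83e-17). Reads of the construct and of the endogenous gene are counted together and cannot be told apart. The 10 tested genes nearest to KHDRBS1, 5 on each side from PEF1-AS1 to IQCC, had differences between -0.21 and 0.28. By edgeR 0 of the 10 passed, 2 had an unadjusted p under 0.05 (both lower, KPNA6 and IQCC), and 0 passed by DESeq2.

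The other STAR family members moved little. KHDRBS3, the closest relative measured, had 663 to 1852 counts per library and a difference of 0.01 ± 0.08 (edgeR adjusted p = 0.957). KHDRBS2 had 0 to 5 counts in each input and could not be tested. QKI, a regulator of splicing and RNA stability, fell by 0.27 ± 0.06 (adjusted p = 0.0044), with SAM68 inputs at 137 and 139 CPM inside the others' range of 130 to 189. SF1, which recognises the branch point, had a difference of 0.14 with an adjusted p of 0.0731.

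Across the 18876 genes tested, 4277 passed an adjusted p of 0.05, which is 22.7% of them. Of these 2075 were higher in the SAM68 line (11%) and 2202 lower (11.7%), with a median difference of 0.001 over all genes. Changes of 2-fold or more were few: 226 genes (1.2%), of which 100 were higher (0.53%) and 126 lower (0.668%). Without SAM68 replicate 1 the number called was 984, and without SAM68 replicate 2 it was 2058. Leaving the WRAP53 line out of the reference gave 2784.

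That count rests on the spread between the 2 libraries of each line. The same contrast made for each reference line in turn called 2267 genes for RNPS1, 3320 for SMN2, 4451 for WRAP53, 5667 for GFP and 6892 for SP100, so the SAM68 line stood in the middle of the 6. With the 10 other inputs taken as 1 group, so that differences between those lines count as spread, 37 genes passed (0.196%), 16 higher (0.0848%) and 21 lower (0.111%), with 2392 at an unadjusted p under 0.05. With counts summed by line, 1 SAM68 line against 5, KHDRBS1 alone passed (0.0048% of 20827 genes; adjusted p = 0.000391, 855 genes at an unadjusted p under 0.05). Calls below therefore compare these libraries, and a call made on replicate spread does not show that the SAM68 line differs by more than lines differ from each other. The fit with the 10 inputs as 1 group still counts the 2 libraries of a line as separate units, so passing it does not show this either.

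**Figure D1:**
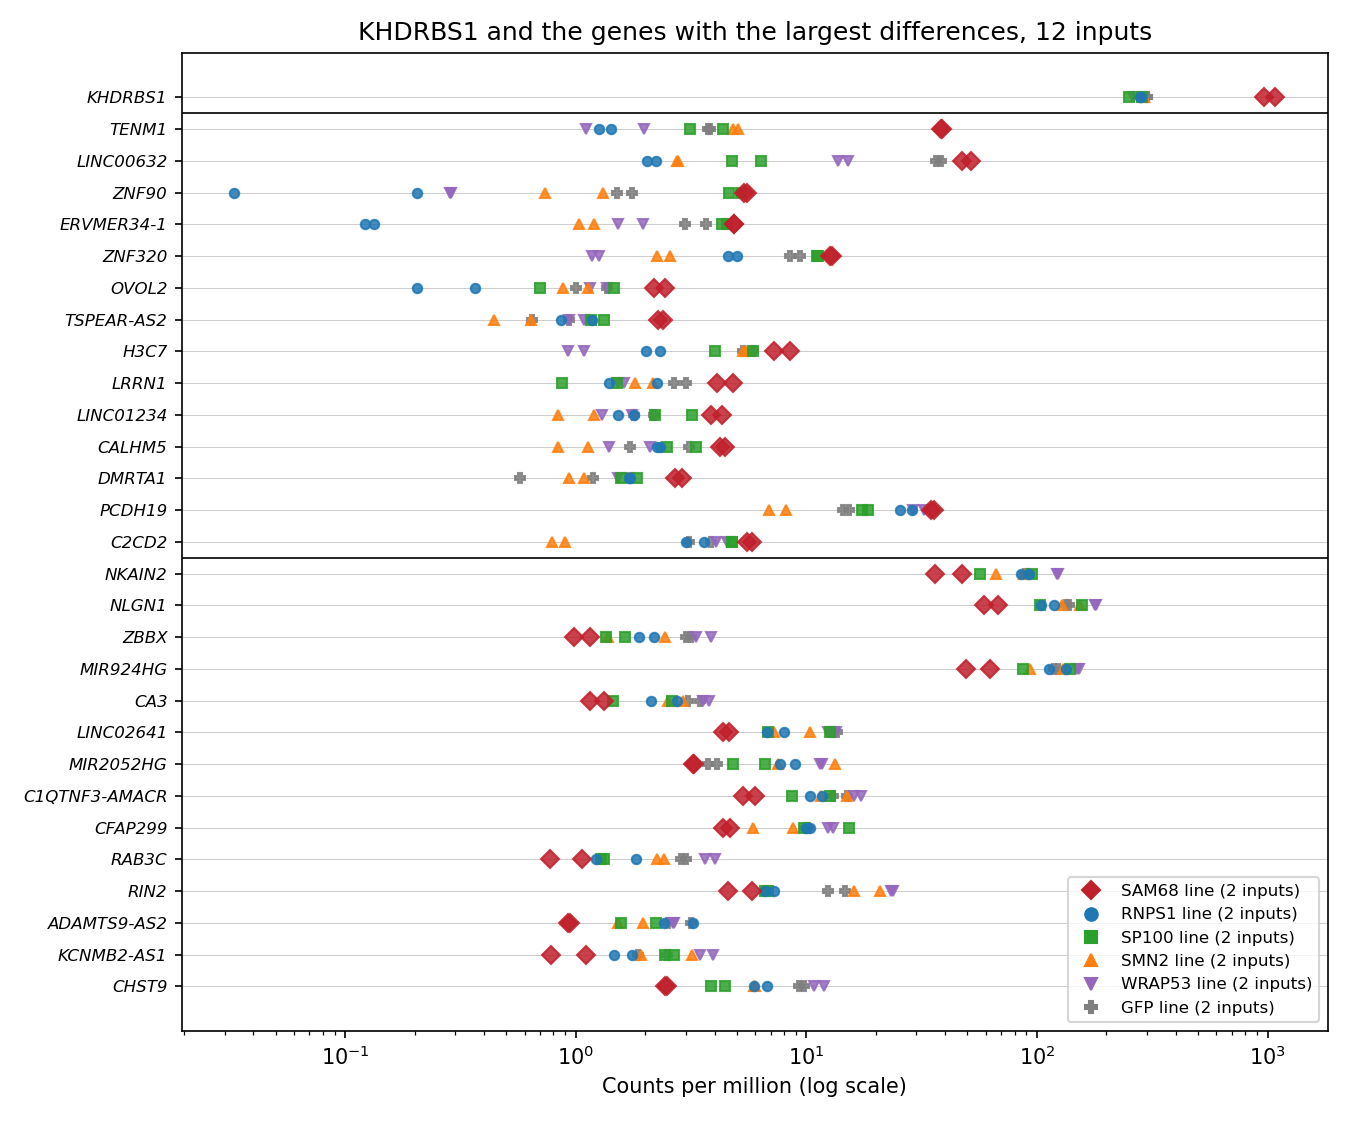
CPM (log axis) of KHDRBS1, the 14 other genes with the highest differences and 14 of the 15 with the lowest, one symbol per library, 2 per line and 12 in all. Red diamonds are the SAM68 inputs; for TENM1 they sit at 38.5 and 38.9 against at most 5.07 in the others, whereas for ZNF90 and ERVMER34-1 the SP100 inputs lie just under them.

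Among genes whose 2 SAM68 values lay above all 10 others (829 genes, 4.39%) or below all 10 (933, 4.94%), 709 were also called higher (3.76%) and 822 also called lower (4.35%). In either direction 1762 genes (9.33%) lay outside the others and 1531 of those (8.11%) were called. The highest and lowest among them with a mean CPM of 1 or more are described next. They were chosen by their difference in this comparison, so their values are a description.

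TENM1 (chrX:124375903-125204312), which encodes teneurin-1, a transmembrane protein that helps neurons make contacts, had the highest difference among called genes averaging 1 CPM or more. It was 38.5 and 38.9 CPM in the SAM68 inputs. It was 1.43 and 1.26 CPM in RNPS1, 3.15 and 4.33 in SP100, 5.07 and 4.81 in SMN2, 1.99 and 1.11 in WRAP53, and 3.81 and 3.74 in GFP. No library of another line came within several-fold of the SAM68 pair, and the difference was 3.83 ± 0.09 on the log2 scale (14.2-fold). TENM1 also passed with the 10 inputs as 1 group (edgeR adjusted p = 0.00109). LINC00632, a long noncoding RNA and the host transcript of the circular RNA CDR1as, followed with 47.4 and 52.0 CPM. Its levels elsewhere formed a wide range from 2.04 in RNPS1 through 13.7 and 15.2 in WRAP53 to 38.5 and 36.6 in GFP, and its difference of 2.81 ± 0.07 did not pass against that spread (adjusted p = 0.421).

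Several other genes high in the SAM68 line were just as uneven between the reference lines. ZNF90, a KRAB-type zinc finger gene of chromosome 19, was 5.52 and 5.39 CPM in SAM68, up to 5.22 in SP100 and down to 0.0332 in RNPS1. ERVMER34-1, an envelope gene of an endogenous retrovirus, was 4.88 in both SAM68 inputs, 4.31 and 4.52 in SP100 and 0.122 and 0.133 in RNPS1. ZNF320 was 12.9 and 12.6 CPM in SAM68, 11.2 and 11.3 in SP100 and at the lowest 1.18 in WRAP53. In all 3 the SP100 line stood next to the SAM68 line, and the groups were separated only narrowly.

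Further genes high in the SAM68 line were mostly at low levels, and some lay only narrowly above the nearest line. OVOL2, a zinc finger repressor that maintains epithelial identity, was 2.44 and 2.18 CPM against 0.204 to 1.47 (1.41 ± 0.21). TSPEAR-AS2, an antisense RNA, was 2.38 and 2.27 CPM against 0.442 to 1.32. LRRN1, a leucine-rich repeat neuronal membrane protein, was 4.82 and 4.11 CPM against 0.874 to 3.02. LINC01234, CALHM5 (a calcium homeostasis modulator channel family member) and DMRTA1 (a doublesex-related transcription factor) had differences of 1.26 ± 0.16, 1.18 ± 0.17 and 1.04 ± 0.17. PCDH19, a delta-protocadherin of the X chromosome, was 34.9 and 35.6 CPM in SAM68, near 29.1 and 32.5 in WRAP53 and far from 6.88 and 8.2 in SMN2. C2CD2 was 5.8 and 5.52 CPM against a highest value of 4.78 in SP100. H3C7, one of the near-identical histone H3 genes and therefore uncertain in its counts, was 8.47 and 7.23 CPM against 0.922 to 5.88.

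At the other end stood CHST9, a sulfotransferase acting on N-acetylgalactosamine, which was 2.5 and 2.44 CPM against 3.84 to 11.9 (-1.51 ± 0.12). RIN2, a guanine exchange factor for RAB5, was 4.6 and 5.82 CPM, close to 6.6 to 7.24 in RNPS1 and SP100 and well under 12.4 to 23.7 in the other 3 lines.

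The remaining low genes were mostly long and partly noncoding. NLGN1, the postsynaptic adhesion protein neuroligin-1, was 58.8 and 67.9 CPM against 103 to 180 (-1.12 ± 0.16). NKAIN2, which encodes a protein that interacts with the sodium pump, was 36.3 and 47.5 CPM against 56.8 to 123, and MIR924HG, the host transcript of a microRNA, 49.3 and 62.5 against 87.4 to 153. RAB3C, a small GTPase of synaptic vesicles, was 1.07 and 0.77 CPM against 1.22 to 4.01. CFAP299, KCNMB2-AS1, ADAMTS9-AS2, MIR2052HG, LINC02641, ZBBX and CA3 (carbonic anhydrase 3) had differences between -1.41 and -1.12. C1QTNF3-AMACR, a readthrough of 2 neighbouring genes with which it shares reads, was 5.33 and 5.99 CPM against 8.68 to 17.2. Of the 15 lowest genes 14 spanned 100 kb or more, where 19.6% of all tested genes with a span did, and their median span was 279 kb against 43.2 kb for the 15 highest.

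Of those 29 genes beside KHDRBS1, only TENM1, C1QTNF3-AMACR, MIR924HG and NLGN1 passed with the 10 inputs as 1 group. Without SAM68 replicate 1, LINC02641, MIR924HG, ZBBX and NKAIN2 did not pass, nor did MIR924HG without SAM68 replicate 2.

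The 37 genes that did pass with the 10 inputs as 1 group were therefore looked at by name, chosen after their values were seen. That fit does not use 1 value per line, and with counts summed by line KHDRBS1 alone of the 37 passed. UFM1, the ubiquitin-like modifier of UFMylation, a modification of ribosomes at the endoplasmic reticulum, was 63.3 and 66.2 CPM in the SAM68 inputs against 28.1 to 40.1 (0.89 ± 0.06). CNIH1 and TMED5, both cargo factors of transport from the endoplasmic reticulum to the Golgi, were 101 and 100 against 60.0 to 74.0 CPM and 136 and 132 against 89.4 to 102 CPM. MZT1, a subunit of the γ-tubulin ring complex, was 52.0 and 60.4 CPM against 27.9 to 42.4. CKS2, a cyclin-dependent kinase subunit, was 68.9 and 67.8 CPM against 48.0 to 56.8, PNRC2, a factor in mRNA decapping, 68.8 and 68.6 against 45.3 to 52.9, and CA2 (carbonic anhydrase 2) 51.8 and 53.4 against 29.4 to 38.8.

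Some of the 37 had low levels in the 10 reference inputs. GAL, the neuropeptide galanin, was 2.8 and 2.44 CPM in SAM68 and 0 to 0.359 in those 10 (5.43 ± 0.31), but in the 16 inputs of the lines outside the reference it reached 4.46, and 2 of those 16 exceeded the lower SAM68 input. RAB17, a GTPase of epithelial recycling endosomes, was 2.19 and 2.01 CPM against 0.0815 to 0.688, and ZNF671 1.93 and 2.4 against 0.216 to 0.867. Among those lower, RO60, which binds Y RNAs and misfolded RNA, was 75.4 and 68.7 CPM against 98.9 to 154 (-0.81 ± 0.07). LRP1B was 67.4 and 76.9 against 99.5 to 151 and LPP 124 and 126 against 177 to 251. All 37 were already among the 4277 genes called on replicate spread. On that spread all 37 passed with the trend with gene span taken out, and 34 passed by DESeq2. These fits use the same 12 libraries and do not count differences between the other lines as spread. Their outcome was largely fixed by how the 37 were chosen, so it is no separate support.

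The span of a gene was related to its difference. Genes under 10 kb were called higher in 659 of 3462 cases (19%, background 11%) and lower in 107 (3.09%, background 11.7%), with a median difference of 0.097. The share called lower rose step by step to 690 of 2371 genes of 100 to 300 kb (29.1%, median -0.116) and 323 of 695 genes over 300 kb (46.5%, median -0.289; background 11.7%). Counts in genes of over 100 kb made up 19.7% and 20.4% of the SAM68 inputs and 20.4% to 23.9% of the others.

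By library, however, the groups overlapped. Relative to the mean of the 6 lines, the median over genes of more than 300 kb was -0.276 and -0.199 in the SAM68 inputs. It was -0.195 in SP100 replicate 1 and -0.217 in SMN2 replicate 2, but 0.097 and 0.067 in their partners, and 0.264 and 0.268 in WRAP53. Single libraries of other lines thus reached the SAM68 level, while the SAM68 pair was low in both. Of the longest genes 55 were called lower without SAM68 replicate 1, 166 without SAM68 replicate 2, 165 without the WRAP53 line and 4 with the 10 inputs as 1 group. Taking the trend with span out by offsets left 4288 genes called, of which 3120 were shared in gene and direction with the 4277, and brought the median of the longest genes to -0.003.

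**Figure D2:**
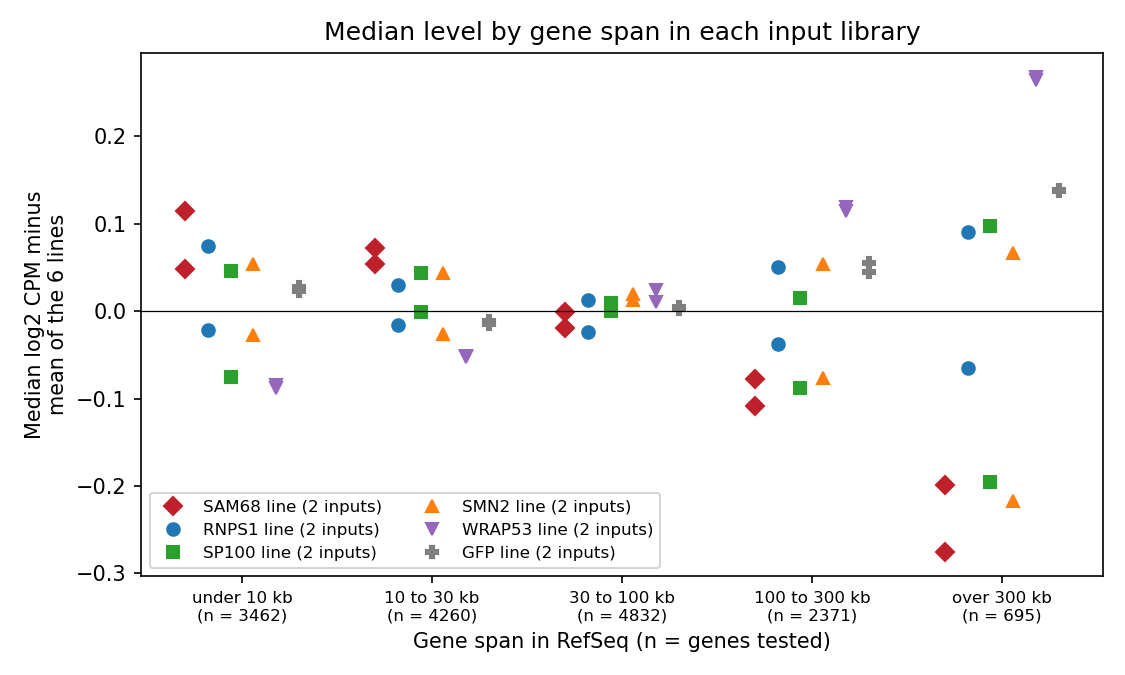
Median over genes of log2 CPM minus the mean of the 6 lines, by gene span class, one symbol per input library. In genes over 300 kb the SAM68 inputs lie at -0.276 and -0.199, next to 1 SP100 (-0.195) and 1 SMN2 library (-0.217) and far from WRAP53 (0.264 and 0.268).

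Genes were also uneven by chromosome. Chromosome 19 had 343 of its 1036 tested genes called higher (33.1%; background 11%) and 24 lower, with a median of 0.148. Its genes are short, with a median span of 16.8 kb, and with the span trend taken out 300 were higher and the median was 0.101. By library the chromosome 19 median was 0.153 and 0.091 in SAM68 and 0.125 and 0.072 in SP100, so the groups overlapped, and it was lowest in WRAP53 at -0.139. The count called higher was 95 without SAM68 replicate 1, 244 without SAM68 replicate 2, 250 without the WRAP53 line and 1 with the 10 inputs as 1 group. Of 214 ZNF-named genes there, 67 were called higher (31.3%, background 11%) and 8 lower (3.74%, background 11.7%), with a median of 0.111. Chromosome 6 went the other way, with 207 of 835 genes called lower (24.8%, background 11.7%) and a median of -0.074. The SAM68 inputs were at -0.055 and -0.064 there and the SP100 inputs lower still at -0.112 and -0.107. Without SAM68 replicate 1 or 2 the count called lower was 52 or 110, it was 135 without the WRAP53 line, and with the 10 inputs as 1 group 0 passed by edgeR. Only on chromosomes 9, 11 and 14 did both SAM68 medians lie above all 10 others, by small amounts: on chromosome 11 they were 0.066 and 0.048 against at most 0.022, and on chromosome 14 0.047 and 0.055 against at most 0.039.

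**Figure D3:**
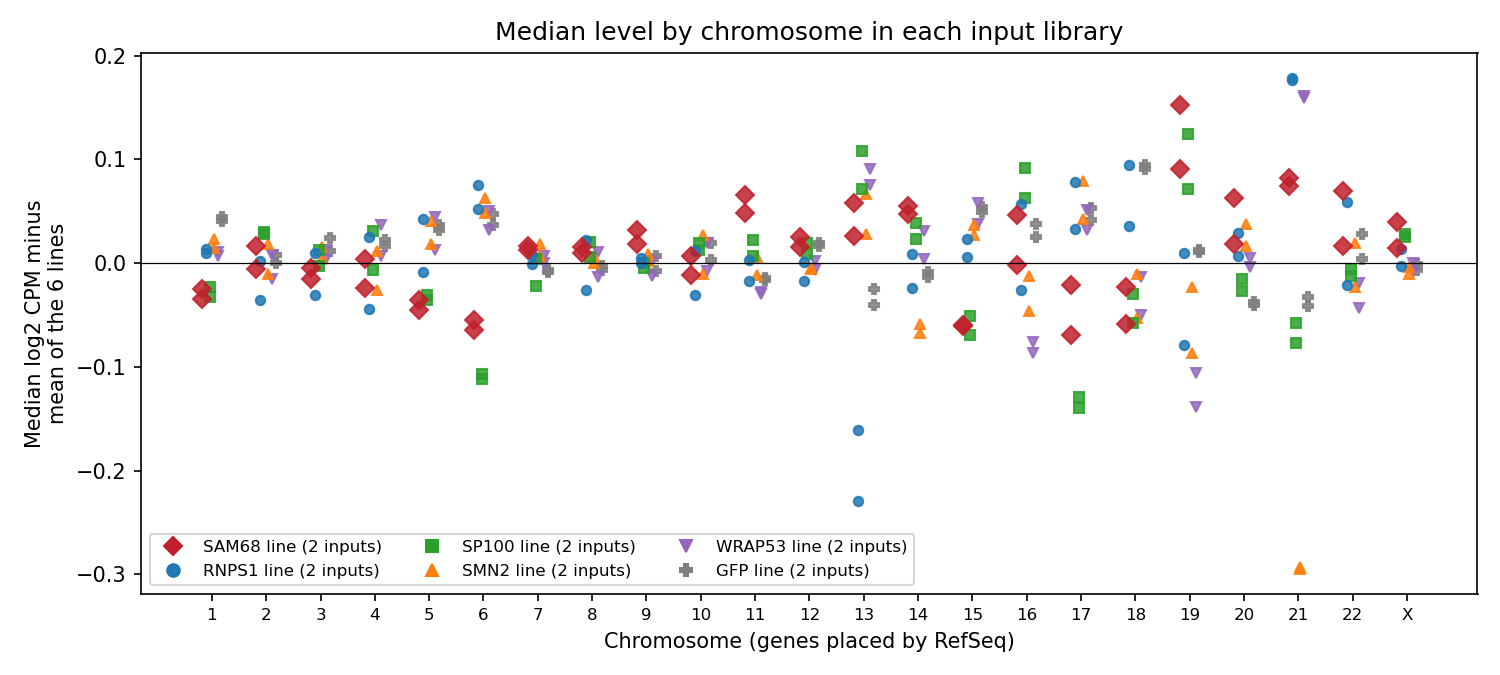
Median over the tested genes of each chromosome of log2 CPM minus the mean of the 6 lines, one symbol per input library. The SAM68 medians stay between -0.069 and 0.153; other lines reach further, for example SMN2 at -0.293 and -0.295 on chromosome 21 and RNPS1 at -0.229 and -0.161 on chromosome 13.

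Among proteins that bind or modify SAM68, 5 of 18 tested genes passed, 3 higher (16.7%, background 11%) and 2 lower (11.1%, background 11.7%), shares close to those of all genes, with a median of 0.053. PRMT1, which methylates SAM68, rose by 0.29 ± 0.06 (244 and 223 CPM against 155 to 221; adjusted p = 0.002). U2AF2, the large subunit of the splicing factor that binds polypyrimidine tracts, was 388 and 354 CPM against 274 to 352. FYN, a kinase that phosphorylates SAM68, was 138 and 143 CPM against 123 to 213 and passed downward at -0.29 ± 0.06. GRB2, an adaptor that binds SAM68, fell by 0.23 ± 0.05. 0 of the 18 passed with the 10 inputs as 1 group, and 0 without SAM68 replicate 1; at an unadjusted p under 0.05 the main edgeR test has 4 higher and 2 lower, and DESeq2 called 3 and 2.

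Of 16 tested RNAs known from the literature as splicing or RNA targets of SAM68, 4 were higher (25%, background 11%) and 3 lower (18.8%, background 11.7%), with a median of -0.052. CD44, a cell surface glycoprotein with SAM68-regulated variable exons, was 20.7 and 19.4 CPM against 8.2 to 21.5, with GFP highest (0.42 ± 0.07). CCND1 (cyclin D1) was 99.6 and 94.7 CPM against 58.5 to 125. AURKA, a mitotic kinase, was 98.4 and 92.5 CPM, above 77.8 to 90.4 in all others, with a difference of 0.17 ± 0.05. On the lower side NRXN3, a presynaptic neurexin, differed by -0.66 ± 0.13 with both SAM68 values below all others, and NLGN1 is given above; both are long genes, in the class that was low as a whole. SMN2 fell by 0.37 ± 0.10, but 1 of the reference lines expresses an SMN2 construct (up to 23.4 CPM there), and SMN1 and SMN2 share nearly all their sequence. A single member of the list, NLGN1, passed with the 10 inputs as 1 group, and without SAM68 replicate 1 the list had 1 higher and 1 lower.

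Other RNA-binding proteins are read against 11% higher and 11.7% lower over all genes. Of 27 HNRNP genes 4 were higher and 1 lower (median 0.051), and without SAM68 replicate 1 the list had 0 of either (edgeR; the full set had 6 and 3 at an unadjusted p under 0.05, and 4 and 2 by DESeq2). HNRNPH3 was 172 and 167 CPM against 144 to 159 and HNRNPH1 584 and 590 against 481 to 573. SR proteins and splicing kinases gave 6 higher (16.7%, background 11%) and 4 lower (11.1%, background 11.7%) of 36. One of the lower genes was RNPS1, the bait of a reference line, at 880 and 832 CPM there and 448 and 418 in SAM68, and without that line 8 were higher and 2 lower. The list had 2 each way without SAM68 replicate 1 and 1 each way without SAM68 replicate 2. The smallest adjusted p was that of CLK1, which phosphorylates SR proteins, at 33.9 and 35.2 CPM against 20.1 to 41.8. Of 19 tissue-restricted splicing regulators 3 were higher and 4 lower, and 1 each way without SAM68 replicate 1. Muscleblind genes went both ways: MBNL3 was 38.4 and 37.2 CPM against 41.5 to 65.5 (-0.46 ± 0.06) and MBNL2 76.8 and 80.4 against 46.2 to 77.3 (0.39 ± 0.07). Paraspeckle and FET genes gave 2 each way of 16, and 0 higher (edgeR) and 2 lower without SAM68 replicate 1 or without SAM68 replicate 2; the full set had 3 each way at an unadjusted p under 0.05 and 2 and 3 by DESeq2. TAF15 fell by 0.37 ± 0.05, with SAM68 inputs at 143 and 142 CPM and the SP100 inputs as low as 141, while NEAT1, the scaffold RNA of paraspeckles, averaged 310 CPM in SAM68 and 577 in the others without passing (adjusted p = 0.107).

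Mitochondrially encoded RNAs were higher. Of 15 genes 13 were called higher (86.7%, background 11%), with a median of 0.45, and 0 were called lower by edgeR (0 at an unadjusted p under 0.05; 1 by DESeq2). MT-CO1, a subunit of cytochrome c oxidase, was 5630 and 6070 CPM in the SAM68 inputs against 3490 to 5240. MT-CO3 was 2130 and 2180 CPM against 1250 to 1890, and MT-ND3, of complex I, 172 and 157 against 92.8 to 147. MT-ND5 overlapped the others, at 1840 and 2040 CPM against 1040 to 1910. For 10 of the 15 genes both SAM68 inputs lay above all 10 others, and mitochondrial counts were 2.14% and 2.37% of the SAM68 libraries against 1.3% to 2% of the others. The 2 mitochondrial ribosomal RNAs, MT-RNR1 and MT-RNR2, did not pass in a library type depleted of ribosomal RNA. By library the list's median was 0.319 and 0.405 in SAM68 and at most 0.176 elsewhere, in RNPS1, and 11 and 10 members passed without SAM68 replicate 1 and 2. With the 10 inputs as 1 group 0 of the 15 passed.

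Nuclear genes of the respiratory chain gave 23 higher (47.9%, background 11%) and 2 lower (4.17%, background 11.7%) of 48, with a median of 0.154. NDUFA4 was 60.2 and 60.1 CPM against 44.6 to 52.9 and NDUFB3 31.5 and 34.4 against 21.3 to 29.0. NDUFS1, the largest subunit of complex I, was lower, at 110 and 105 CPM against 124 to 148, and so was NDUFS4. Of 74 cytosolic ribosomal protein genes 27 were higher (36.5%, background 11%, median 0.16). By edgeR 0 were lower (0 at an unadjusted p under 0.05 and 0 by DESeq2). RPS29 was 137 and 140 CPM against 82.1 to 119 and RPS13 266 and 267 against 184 to 249. These genes are short, with median spans of 10.6 and 4.9 kb, and with the span trend removed 13 and 17 passed upward and both medians were 0.076. Both counts fell without SAM68 replicate 1 and also without SAM68 replicate 2, as did the number called over all genes. Host genes of small nucleolar RNAs share the terminal oligopyrimidine start of ribosomal protein mRNAs. Of 20 tested 10 were higher (50%, background 11%, median 0.193), led by SNHG1 at 70.3 and 76.6 CPM against 52.0 to 67.0. That count was 4 and 3 without SAM68 replicate 1 and 2, and 6 with the span trend removed.

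**Figure D4:**
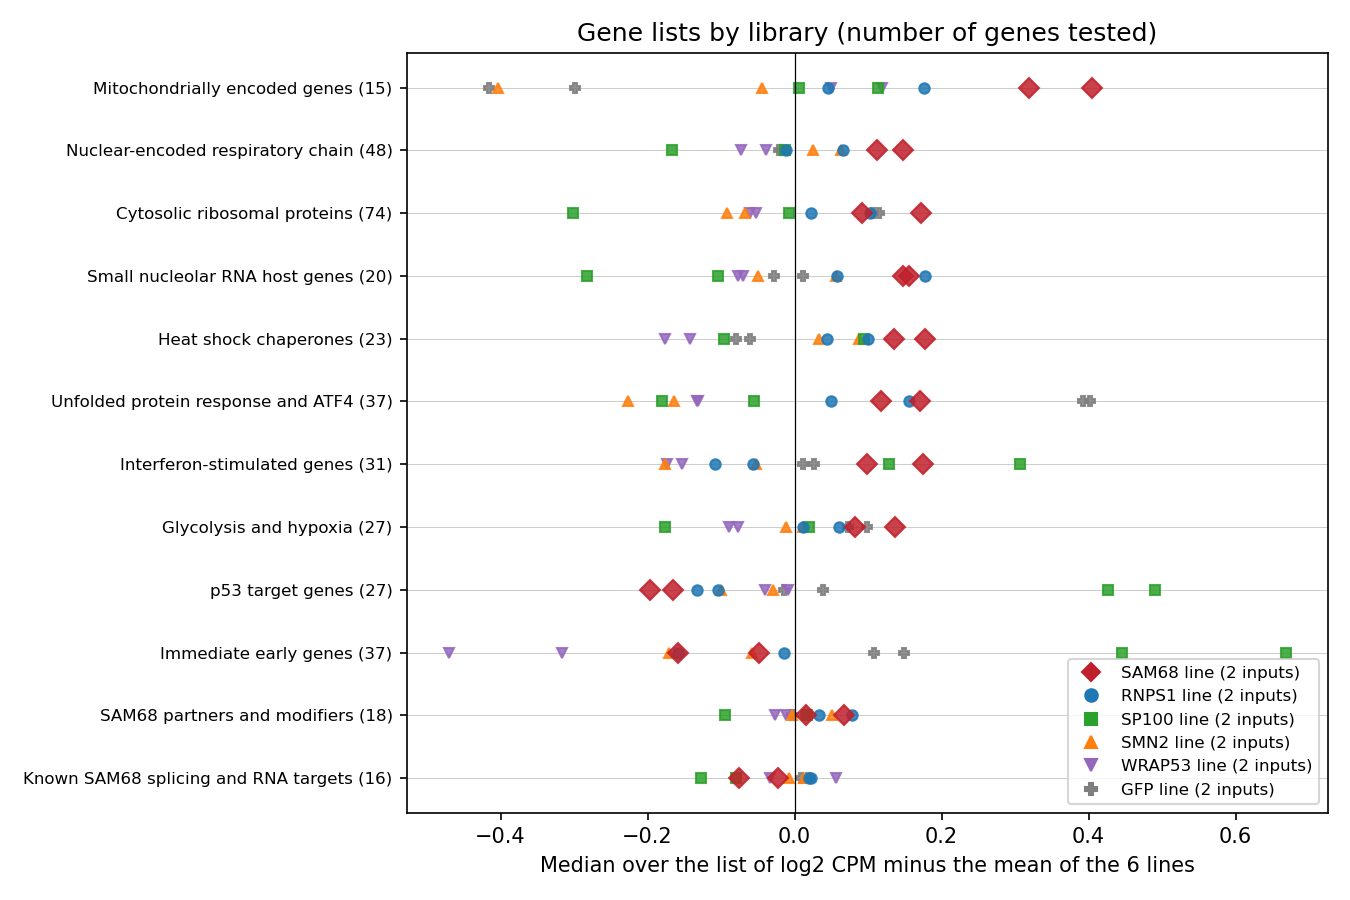
Median over each gene list of log2 CPM minus the mean of the 6 lines, one symbol per input library, with the number of genes tested in parentheses. The SAM68 pair is apart from all others for mitochondrially encoded genes (0.319 and 0.405), the respiratory chain, heat shock chaperones and p53 targets, but GFP exceeds it for the unfolded protein response (0.402 and 0.392) and SP100 for interferon-stimulated genes (0.307).

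Chaperones of the heat shock response are shown with their promoters because many of its members were called higher and its best known regulator, HSF1, binds a short repeated element. Of 23 genes tested 12 were higher (52.2%, background 11%) and 1, HSF2, was lower (4.35%), with a median of 0.186. HSPA1B, the inducible HSP70, led with 235 and 228 CPM in SAM68. It was 180 and 170 CPM in RNPS1, 106 and 103 in SP100, 155 and 155 in SMN2, 132 and 140 in WRAP53 and 138 and 137 in GFP. Both SAM68 libraries exceeded every other one, and the difference was 0.73 ± 0.05 (edgeR adjusted p = 1.01e-09; 0.0891 with the 10 inputs as 1 group). HSPA1A is nearly identical in sequence and was counted at about 1 CPM, so reads of the pair may be divided unevenly between them. DNAJB6 was 95.1 and 96.5 CPM against 73.2 to 84.9 and AHSA1, a co-chaperone of HSP90, 81.0 and 73.2 against 53.6 to 70.2.

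The other members called higher were smaller changes, such as HSPA8, the constitutive HSC70 (0.24 ± 0.06), HSP90AA1 (0.22 ± 0.06) and SERPINH1, a collagen chaperone (0.21 ± 0.07). 9 members passed upward with the span trend removed, 3 without SAM68 replicate 1, 5 without SAM68 replicate 2 and 6 without the GFP line. With the 10 inputs as 1 group 0 passed (edgeR). The 250 bases before the annotated start are given for 3 called genes, picked because their windows hold the element, from RefSeq (GRCh38.p14), 5′ to 3′ on the gene's strand, with the heat shock element in capitals. It was searched as the blocks GAA, TTC and GAA, or on the other strand TTC, GAA and TTC, with any 2 bases between neighbouring blocks. They lie at chr11:123062137-123062386 (minus strand), chr7:157336754-157337003 (plus) and chr11:75562003-75562252 (plus).
HSPA8: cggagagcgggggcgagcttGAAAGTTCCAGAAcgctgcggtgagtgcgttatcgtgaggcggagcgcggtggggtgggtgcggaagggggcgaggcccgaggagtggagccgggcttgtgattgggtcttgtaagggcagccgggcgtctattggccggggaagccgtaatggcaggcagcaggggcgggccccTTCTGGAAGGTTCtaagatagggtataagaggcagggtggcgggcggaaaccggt
DNAJB6: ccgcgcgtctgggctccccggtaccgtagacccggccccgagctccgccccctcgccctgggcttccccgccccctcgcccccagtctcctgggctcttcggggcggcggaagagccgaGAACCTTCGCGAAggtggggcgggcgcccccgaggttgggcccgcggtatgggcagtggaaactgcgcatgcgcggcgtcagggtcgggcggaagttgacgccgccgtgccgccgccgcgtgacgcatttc
SERPINH1: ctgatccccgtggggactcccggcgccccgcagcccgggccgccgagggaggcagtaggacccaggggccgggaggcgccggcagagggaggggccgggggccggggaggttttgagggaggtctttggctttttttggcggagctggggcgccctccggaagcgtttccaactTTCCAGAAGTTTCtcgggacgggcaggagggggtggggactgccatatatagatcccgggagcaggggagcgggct

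A promoter window was found for 21 of the 23 genes. The element, in these blocks on either strand, was in 5 of the 11 genes with a window that were called higher and in 2 of the 9 that were not called. Among all 27305 genes with windows, 0.557% had a window that held it. HSPA1B, DNAJB2 and AHSA1 had no such letters in their windows, from which nothing follows about the factor.

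Genes of the unfolded protein response and of ATF4 gave 22 higher of 37 (59.5%, background 11%; median 0.181) and 0 lower (0 at an unadjusted p under 0.05 and 0 by DESeq2). SLC3A2, a subunit of amino acid transporters, was 244 and 233 CPM against 163 to 232. DNAJB9, a chaperone of the endoplasmic reticulum, rose by 0.45 ± 0.08. These were the 2 of 37 members whose SAM68 values lay above all 10 others, where 4.39% of all genes did. The GFP line was higher still for several members: ALDH1L2, a mitochondrial folate enzyme, was 24.5 and 20.5 CPM in SAM68 and up to 36.0 in GFP, with a lowest value of 4.37 in SMN2, and SLC7A5, STC2 and SLC7A11 also peaked in GFP. The list's median by library was 0.170 and 0.117 in SAM68 and 0.402 and 0.392 in GFP. Without the GFP line 23 members passed upward with a median of 0.309, and without SAM68 replicate 1 the count was 7.

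Of 24 NRF2 antioxidant genes 5 were higher (20.8%, background 11%; median 0.056), and 2 without SAM68 replicate 1. By edgeR 0 were lower (2 at an unadjusted p under 0.05, 0 by DESeq2). HMOX1, heme oxygenase 1, was 12.4 and 11.9 CPM in SAM68. In the 10 reference inputs it lay between 5.91 and 8.1 CPM, with a median of 6.69, and did not overlap SAM68 (0.81 ± 0.09, adjusted p = 3.56e-06; 0.0178 with the 10 inputs as 1 group). FTL, the ferritin light chain, was 241 and 225 CPM against 141 to 220. Metallothioneins gave 0 calls among 3 tested (edgeR; 0 at an unadjusted p under 0.05, 0 by DESeq2).

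Targets of p53 were lower: 15 of 27 passed downward (55.6%, background 11.7%), with a median of -0.197, and 0 upward (1 at an unadjusted p under 0.05, 0 by DESeq2). MDM2, the ubiquitin ligase that restrains p53, was 287 and 286 CPM in SAM68, below 299 to 555 in the others. BTG2, an antiproliferative factor, was 34.5 and 32.9 CPM against 37.8 to 71.1, and POLH, a translesion polymerase, 42.4 and 43.4 against 48.5 to 62.1. CDKN1A, the cell cycle inhibitor p21, was 43.7 and 36.0 CPM and overlapped the others, which ran from 40.3 in SMN2 to 150 in SP100. The SP100 line was high for the whole list, with medians of 0.490 and 0.427 against -0.166 and -0.197 in SAM68 and -0.133 and -0.104 in RNPS1. Without the SP100 line 12 were lower and 3 higher and the median was -0.094. Without SAM68 replicate 1 or 2, 8 passed downward.

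For immediate early genes the SP100 line was again high, with list medians of 0.668 and 0.445. Unlike for p53 targets, the SAM68 medians of -0.049 and -0.159 lay inside the range of the others. The WRAP53 inputs were lower, at -0.47 and -0.317. Of 37 tested 4 were higher (10.8%, background 11%) and 11 lower (29.7%, background 11.7%), with a median of -0.145. FOS was 16.2 and 13.6 CPM in SAM68 against 12.8 in WRAP53 and 52.5 in SP100, ATF3 52.0 and 52.2 against 45.9 to 150, and EGR1 averaged 201 CPM against 376. The SAM68 inputs were inside the range of the others for each of the 3. Without the SP100 line 7 were higher and 7 lower, and the median was 0.028. Without SAM68 replicate 2, 5 were lower.

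Interferon-stimulated genes gave 12 higher of 31 (38.7%, background 11%; median 0.187) and 0 lower (2 at an unadjusted p under 0.05, 0 by DESeq2). IFIT1, an RNA sensor, was 5.21 and 4.62 CPM against 2.26 to 4.35, whereas OAS3 was 17.4 and 16.6 in SAM68 and up to 34.2 in SP100. The count was 1 without SAM68 replicate 1 and 5 without SAM68 replicate 2. Glycolysis and hypoxia genes gave 8 higher of 27 (29.6%, background 11%; median 0.124). SLC2A3, a glucose transporter, was 10.2 and 9.75 CPM against 1.43 in WRAP53 and 16.1 in SP100, and PGAM1 123 and 116 against 88.1 to 111. Without SAM68 replicate 1 or 2 that list had 2 or 5 higher.

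With the 10 inputs as 1 group, KHDRBS1, NLGN1 and HMOX1 were the members of any list that passed. The remaining lists are given beside the same background of 11% higher and 11.7% lower. Of 45 replication-dependent histone genes 6 were higher (13.3%) and 0 lower by edgeR (1 at an unadjusted p under 0.05, 0 by DESeq2); these genes have near-identical copies, so their counts are uncertain. Mitosis genes gave 6 higher and 2 lower of 34, with MAD2L1, of the spindle checkpoint, at 92.5 and 95.0 CPM against 67.8 to 87.3. DNA replication genes gave 3 higher and 5 lower of 40, cholesterol synthesis 6 and 1 of 22, HOX genes 3 and 0 of 23 (0 lower at an unadjusted p under 0.05 and by DESeq2), and Wnt, TGF-β and Notch targets 6 and 2 of 25. Extracellular matrix and adhesion genes gave 7 each way of 42. COL3A1, a fibrillar collagen, was 3.53 and 2.61 CPM against 0.693 to 3.31, and NID1, of basement membranes, 231 and 226 against 235 to 402. Of 8 neuronal markers tested 3 were lower, SNAP25, MAP2 and SYP (37.5%, median -0.317). Without SAM68 replicate 1 the mitosis and the Wnt, TGF-β and Notch lists had 0 calls in either direction by edgeR, where the full set had 7 and 6, and 7 and 5, at an unadjusted p under 0.05, and 6 and 2, and 5 and 2, by DESeq2. In the same setting the cholesterol and histone lists had 1 higher each, DNA replication 1 lower, extracellular matrix 4 higher and 2 lower, and the neuronal markers 0 lower (edgeR; 4 at an unadjusted p under 0.05 and 2 by DESeq2 in the full set). Without SAM68 replicate 2 the mitosis list had 3 higher and 0 lower, Wnt, TGF-β and Notch 3 and 2, cholesterol 4 and 0, DNA replication 3 and 1, extracellular matrix 4 each way, and HOX 1 higher.

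The pulldown libraries of the same lines, made from the same RNA extracts and not used to choose the genes, were compared in the same way for SAM68 against RNPS1, SP100, SMN2 and WRAP53. RNA there is also selected by its closeness to the bait, and 9395 of 21332 genes were called (44%), 5170 higher (24.2%) and 4225 lower (19.8%). Of the 30 highest and lowest input genes, 28 had the same direction in the pulldowns, and 15 of them were called. By edgeR 0 were called in the opposite direction. The background for a call in a given direction is 24.2% for higher and 19.8% for lower. Of the 4268 called input genes that could be tested, 2289 had the same direction, 1424 were called in it and 1246 were called in the opposite direction. The leading genes thus carried over, whereas the input calls as a whole went both ways.

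TENM1 was 98.4 CPM in both SAM68 pulldowns against 1.82 to 7.91 in the other 8, a difference of 4.69 ± 0.17. LINC00632 differed by 3.37 ± 0.10 in pulldowns and 3.42 ± 0.08 in inputs against the same 4 lines. KHDRBS1 differed by 2.65 ± 0.05 in pulldowns and 1.88 ± 0.06 in inputs. DMRTA1 differed by 2.87 ± 0.17 in pulldowns and 0.91 ± 0.16 in inputs, and CHST9 by -0.06 ± 0.14 and -1.40 ± 0.13.

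**Figure D5:**
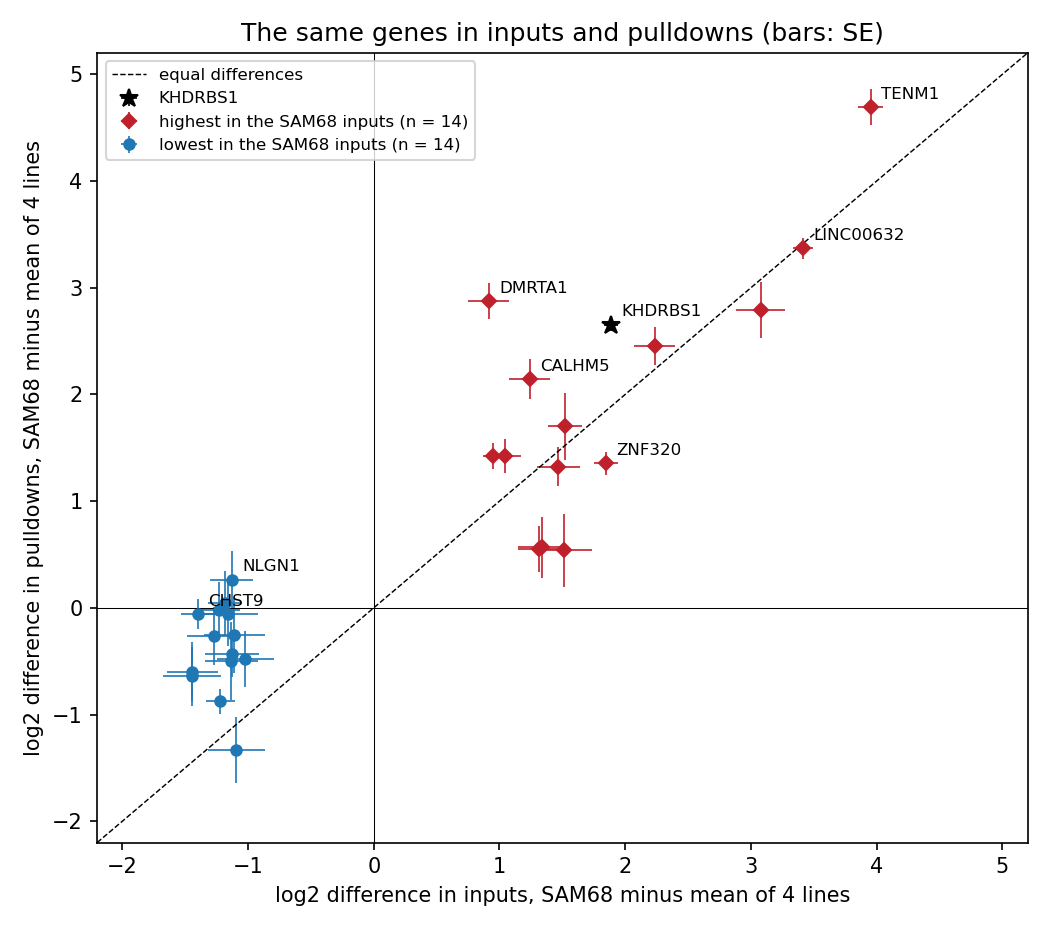
Log2 difference of the SAM68 line from the mean of RNPS1, SP100, SMN2 and WRAP53 in inputs (x axis) and pulldowns (y axis), with SE bars, for KHDRBS1, the 14 other highest and 14 of the 15 lowest input genes. LINC00632 (3.42 and 3.37) lies near the line of equal differences, and TENM1 (3.95 and 4.69) lies above it. Most of the lowest genes also lie above the line, such as NLGN1 (-1.13 and 0.27).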

How the data were processed

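Per the submitters' processing notes, reads were handled with STAR 2.7.4a and featureCounts on hg38; for the annotation, the strand setting and the version of featureCounts the entry is: not given in the sources used here. The deposited values are raw counts per gene, not normalised. The table has 60591 rows; 60590 were used, since 1 row held a non-numeric entry. Without a stated strand, antisense and overlapping genes cannot be told apart, and paralogs share reads. Names were matched to RefSeq (GRCh38.p14, gene spans only): of the tested genes 15258 by symbol, 362 by synonym and 3256 not.

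The test was edgeR 4.0.16 (R 4.3.3) on counts: filterByExpr, TMM, a robust quasi-likelihood fit with 1 mean per line (6 residual and 14.94 median prior degrees of freedom), SAM68 minus the mean of the log levels of the 5 other lines, two-sided, Benjamini-Hochberg adjusted at 0.05. SE is the absolute log2 difference over the square root of F. The reference is a mean of logs, so for uneven genes it differs from the mean CPM. CPM is scaled by TMM; medians by library used log2 CPM with a prior count of 2. DESeq2 1.42.0 was an alternative.

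Named genes were KHDRBS1, the 15 highest (KHDRBS1 among them) and 15 lowest differences among called coding and long noncoding genes averaging at least 1 CPM, with both SAM68 inputs outside all 10 others (638 higher, 656 lower), from every list described at most the 4 members ranked first by adjusted p, and 5 neighbours on each side of KHDRBS1. Others named were chosen after their values were seen; 2 genes that the rule names are counted but not reported here. The members and lists were chosen with earlier results of these data known. On counts simulated for these 12 inputs (18525 genes fitted, 200 changed), 67.2% of 1.5-fold, 85.1% of 2-fold and 93.9% of 4-fold changes were recovered, with 12 false calls. The simulated lines differed only in the changed genes and only by the spread between replicates. These values therefore do not bear on calls that arise because lines differ from each other. Replicate numbers did not pair the lines: correlations of same-numbered deviations over 15 pairs of lines ran from -0.112 to 0.132. Replicate pairs differed by a chi-square per degree of freedom of 1.306 (GFP) to 11.24 (SP100), 4.846 for SAM68, and all were kept as 2 libraries. Alternatives are in the closing section.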

Additional observations from a re-analysis of the deposited data

Results flagged for a closer look

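For 12 of the 30 genes with the highest and lowest input differences, KHDRBS1 included, the difference of the SAM68 line from RNPS1, SP100, SMN2 and WRAP53 was not the same in pulldowns as in inputs (edgeR interaction over 20 libraries, adjusted p under 0.05; 7818 of 21466 genes, 36.4%, passed this test). That is 40% of the 30, close to the share of all genes, and the 30 were chosen by their input values, which form one side of the comparison, so the values are a description. The pulldown difference minus the input difference was 0.76 ± 0.09 for KHDRBS1, 0.74 ± 0.25 for TENM1, 0.90 ± 0.27 for CALHM5, 1.95 ± 0.24 for DMRTA1 and 0.47 ± 0.15 for PCDH19, which were all high in both fractions. It was -0.50 ± 0.14 for ZNF320 and -0.77 ± 0.28 for LINC01234, whose excess was smaller in pulldowns. Among genes low in the inputs it was 1.33 ± 0.19 for CHST9, 0.99 ± 0.37 for ADAMTS9-AS2, 1.20 ± 0.37 for CFAP299, 1.22 ± 0.37 for C1QTNF3-AMACR and 1.39 ± 0.34 for NLGN1, so that these were less low, or not low, in the SAM68 pulldowns.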

How the results depend on the processing

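KHDRBS1 passed under every alternative, with differences of 1.78 to 1.95 when 1 library was left out. The count of 4277 calls was 365 with all 28 inputs fitted, 376 with all 56 libraries fitted, 37 with the 10 other inputs as 1 group, 1 with summed lines, 2784 without the WRAP53 line, 348 against the mean of 13 other lines and 80 against the mean of 7. Leaving out 1 library gave 984 (without SAM68 replicate 1) to 5292 (without SP100 replicate 1). It was 3656 with DESeq2, 4315 with DESeq2 size factors, 4193 with total counts, 4496 without the count filter, 3946 at a mean CPM of 5 or more and 4288 with the span trend removed (chosen after seeing the data). With the replicate number as a block it was 4030; since the numbers do not pair the lines, this is given as a value only. The 9395 pulldown calls became 6076 (without SAM68 pulldown replicate 2) to 10193 when 1 library was left out. Among named genes 1 direction reversed: H4C1, at -0.049 against the mean of 13 other lines. Genes at 1 to 5 CPM rest on few reads and fix the size of a difference poorly.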

Other observations

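In the 16 inputs of the 8 further lines of the table, none used as reference, TENM1 was 1.15 to 5.87 CPM, with a median of 2.09, against 38.6 and 39.0 in the SAM68 inputs. UFM1 was 7.32 to 44.7 CPM there, against 63.4 and 66.4, and KHDRBS1 266 to 389. GAL reached 4.46 CPM in an FBL input, above both SAM68 inputs, and HMOX1 was 6.63 to 11.9 CPM with a median of 9.28, up to about the lower SAM68 input. LINC00632 reached 19.6 CPM, ZNF90 3.68 and RAB17 1.86, all under the SAM68 inputs. By contrast ZNF320 was at least as high as the lower SAM68 input in 4 of the 16 (up to 30.0 CPM in an FBL input), H3C7 in 4, OVOL2 in 3 and C2CD2 in 8. LRRN1 and DMRTA1 reached that level in 2 of the 16, and PCDH19 and LINC01234 in 1. HSPA1B was higher than the SAM68 inputs in 3 of the 16, up to 563 CPM in an FBL input. CHST9, RAB3C, MIR2052HG and MDM2 were lower in both SAM68 inputs than in each of the 16. The other lowest genes reported overlapped them: 5 of the 16 were below the higher SAM68 input for RIN2, 3 for NKAIN2 and MIR924HG, 2 for CFAP299, C1QTNF3-AMACR and ZBBX, and 1 for NLGN1, KCNMB2-AS1, ADAMTS9-AS2, LINC02641 and CA3. Of the 37 genes that passed with the 10 reference inputs as 1 group, 12 were above and 1 (MINDY2) below all 26 other inputs, and 24 overlapped them. The share of all genes outside the 26 was not computed. The 37 were chosen by their values against 10 of those 26, so these counts are a description.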
